A study of Homo sapiens with 6 samples.

Results

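The replication-dependent histone genes are the genes for the H1, H2A, H2B, H3 and H4 proteins that lie in the clusters HIST1 on chromosome 6 and HIST2 and HIST3 on chromosome 1, with the single gene HIST4H4 on chromosome 12. All genes of GENCODE release 29 with a symbol beginning HIST1H, HIST2H, HIST3H or HIST4H were taken, 90 of the 34500 genes in the files, of which 71 were protein-coding and 19 pseudogenes (2 HIST1 pseudogenes are annotated on chromosome 13). RNA had been sequenced from RPMI 8226, an established human multiple myeloma line, after lentiviral delivery of a hairpin against luciferase (shLuc, the control, since human cells lack that gene) or against HDAC1 (shHDAC1), a histone deacetylase. Both groups were grown in medium with 10% fetal bovine serum and kept in puromycin for 48 h, and each held 3 libraries that the series describes as separate transductions of the line. If the libraries of a group share more than that, the p-values below measure only technical spread. Each library is a list of TPM values, each a transcript's length-corrected share of the library, but TPM keeps no read number and the depth is unknown. Levels can be compared between genes only as far as the annotated transcript lengths match the messages. For like H3 coding sequences the annotated length ran from 411 bases (HIST2H3D) to 2411 bases (HIST1H3G), so levels and sums across members carry this limit.

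These genes supply the histones that package DNA as it is copied, and their messages are made in bulk during S phase. They carry no intron and no poly(A) tail in their usual form. A hairpin in the 3′ end of the message, bound by the stem-loop binding protein SLBP, directs cleavage by the U7 small nuclear ribonucleoprotein and then governs the translation and decay of the message. Some of the genes are also made as longer polyadenylated messages, often in cells that have left the cell cycle. The labels do not state whether RNA with poly(A) tails was selected before library preparation.

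The hairpins are shown first because the genes are known for this 3′ end. The hairpin was searched on the sense strand as 16 bases that begin with GG, end with CC and form 6 stem pairs (G-T pairs allowed) around a loop of 4 bases, with the T and A residues common to these hairpins fixed. It occurred in 43 of 116 listed histone transcripts (37.1%) and in 282 of 159192 transcripts in all (0.177%). Of the 34 histone genes that held it, 18 shared 1 form, all of the H2A, H2B or H3 type, and the 8 H4 genes held 2 forms found in no other type. No listed H1 transcript held it. The models of 35 of the 116 transcripts hold the coding sequence alone and cannot show a hairpin, among them those of 4 of the 6 protein-coding H1 genes, so a model without one does not tell how the message ends. The capitals mark the hairpin, and the sequences are from GENCODE 29 transcripts, 5′ to 3′, with 1 gene for each of the 5 forms.
HIST1H2AE: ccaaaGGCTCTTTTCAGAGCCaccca
HIST1H2BD: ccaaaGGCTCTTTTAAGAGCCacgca
HIST1H2AG: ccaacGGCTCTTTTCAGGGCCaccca
HIST1H4H: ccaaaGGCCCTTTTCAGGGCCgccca
HIST2H4A: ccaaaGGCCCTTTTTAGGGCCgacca

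Promoters are shown for a linker histone gene and 2 core histone genes with large differences between the groups, to let the types be compared. Of the 90 members, 65 matched a RefSeq promoter, a window of 300 bases from 250 before to 50 after the annotated start. TATAAA (searched on the gene's strand) was in 38 of the 65 (58.5%) and in 7.33% of 35116 promoters. CCAAT (both strands) was in all matched H1, H2A, H2B and H3 promoters but in 3 of 13 H4 promoters, and in 34.6% of all promoters. The octamer ATTTGCAT (both strands), bound by POU2F1 and its relatives, was in 14 of 17 H2B and 11 of 16 H2A promoters, in 1 of 13 H3 promoters, in 0 of 6 H1 and 0 of 13 H4 promoters, and in 1.77% of all. The 1 H3 promoter is that listed for HIST1H3D, whose window is the same stretch as that of HIST1H2AD and is counted under both; the CCAAT count of the H3 type holds it too. The letters AAACACAA (both strands), part of an element described upstream of H1 genes, were in 4 of 6 H1 promoters, in none of the other 59, and in 1.55% of all. These 4 motifs do not overlap each other. In the stretches below, the 250 bases before each start (RefSeq, GRCh38.p14, plus strand), capitals mark them.
HIST1H1E (chr6:26156079-26156328): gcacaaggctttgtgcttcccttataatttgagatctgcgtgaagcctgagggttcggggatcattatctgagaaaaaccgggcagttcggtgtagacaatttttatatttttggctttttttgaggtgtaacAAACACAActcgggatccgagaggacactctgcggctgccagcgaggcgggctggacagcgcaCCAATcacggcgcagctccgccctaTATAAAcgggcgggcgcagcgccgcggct
HIST1H2AI (chr6:27807923-27808172): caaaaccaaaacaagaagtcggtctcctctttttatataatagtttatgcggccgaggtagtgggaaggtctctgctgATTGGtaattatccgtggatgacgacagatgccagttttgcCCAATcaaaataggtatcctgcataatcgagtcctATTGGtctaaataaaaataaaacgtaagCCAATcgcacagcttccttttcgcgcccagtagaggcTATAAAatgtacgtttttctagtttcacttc
HIST1H2BO (chr6:27893175-27893424): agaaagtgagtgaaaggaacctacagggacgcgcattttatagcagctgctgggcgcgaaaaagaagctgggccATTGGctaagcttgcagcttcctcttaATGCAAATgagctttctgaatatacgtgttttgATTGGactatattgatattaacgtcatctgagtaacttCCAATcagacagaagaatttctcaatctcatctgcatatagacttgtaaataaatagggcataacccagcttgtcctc
HIST1H1E has TATAAA 29, CCAAT 54 and AAACACAA 117 bases before its start. HIST1H2AI has TATAAA 31 bases before its start and 4 copies of CCAAT, 2 of them on the other strand. HIST1H2BO has the octamer 149 bases before its start on the other strand, 3 copies of CCAAT, and no TATAAA in this window.

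HDAC1 itself read 89.98, 85.0 and 88.9 TPM with shLuc and 31.8, 27.0 and 29.2 TPM with shHDAC1 (log2 fold change -1.56 ± 0.08, SE; limma adjusted p = 2.2e-06). The libraries listed 11629 to 11992 genes at 1 TPM or more, and the files matched GENCODE 29 for 96.8% to 97.3% of their TPM. Of 11857 genes tested, 2007 were called higher and 1219 lower with shHDAC1. Centring each library on its median gave 1336 higher and 1828 lower, and quantile normalization 1412 and 1591. Of 9 plasma cell genes listed to check the cell type, 8 were measured at levels that allowed a test and all 8 were called lower with shHDAC1, with sums of 8121 to 8935 TPM against 6002 to 7259 over the 9. The part of this in the histone values was not tested. T and NK cell markers summed to 0.833 TPM at most and mature B cell markers to 0.862 TPM at most in any library. The 3 epithelial markers, KRT18 and EPCAM among them, summed to 215 to 227 TPM with shLuc and to 218 to 227 TPM with shHDAC1, and 0 of the 3 was called. The 5 myeloid markers summed to 8.04 to 10.4 TPM with shLuc and to 16.7 to 20.7 TPM with shHDAC1, nearly all of it CD68, the 1 gene of them tested and called higher. Fibroblast markers summed to 2.83 TPM at most. The part of CD68 in the histone values was not tested.

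Histone messages were higher with shHDAC1 in every type and every cluster. Summed over the protein-coding genes, they made up 107, 143 and 233 TPM with shLuc and 1305, 1016 and 763 TPM with shHDAC1. The lowest shHDAC1 library was 3.28 times the highest shLuc library, and the mean went from 161 ± 64.6 to 1028 ± 271 TPM (SD, n = 3), a ratio of 6.39. In bulk RNA, more RNA in each cell and more cells that hold it cannot be told apart.

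Linker histone H1, which binds DNA between nucleosomes, had the smallest ratio of the 5 types, a rank that rests on HIST1H1C. Its genes summed to 31.6, 40.3 and 59.1 TPM with shLuc and to 231, 182 and 157 TPM with shHDAC1, a ratio of means of 4.35. Without HIST1H1C they summed to 5.98, 12.9 and 25.0 TPM with shLuc and to 134, 112 and 86.4 TPM with shHDAC1, a ratio of 7.58. Among the core histones, which form the nucleosome itself, H2A summed to 25.3, 41.1 and 67.4 TPM and then to 378, 321 and 236 TPM (ratio 6.99). For H2B, the sums were 21.5, 28.8 and 46.8 TPM against 337, 261 and 178 TPM (ratio 7.99). The groups did not overlap in any of these 3 types. H3 summed to 7.68, 7.68 and 18.7 TPM with shLuc and to 117, 90.9 and 66.1 TPM with shHDAC1, the largest ratio, 8.04. H4 summed to 20.9, 25.6 and 40.6 TPM and to 242, 161 and 126 TPM (ratio 6.08). Both were also without overlap, and in all 5 types the lowest shHDAC1 library was at least 2.66 times the highest shLuc library.

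By cluster, HIST1 held most of the histone RNA. It summed to 77.7, 104 and 168 TPM with shLuc and to 959, 751 and 549 TPM with shHDAC1 (ratio of means 6.45), and HIST2 to 23.5, 34.0 and 59.2 TPM and 326, 250 and 198 TPM (ratio 6.63). HIST3, a group of 3 protein-coding genes, summed to 2.45, 4.28 and 4.37 TPM against 12.5, 11.3 and 10.4 TPM (ratio 3.08). HIST4H4 alone makes up HIST4 and stood at 3.39, 0.798 and 0.573 TPM against 7.48, 4.17 and 5.06 TPM (ratio 3.51). No groups overlapped, but for HIST4 the lowest shHDAC1 library was only 1.23 times the highest shLuc library, which is replicate 1. Most of the value in that library came from a spliced transcript without coding sequence (ENST00000537853.1), at 2.60, 0.435 and 0 TPM with shLuc and 0.482, 0.979 and 0.535 TPM with shHDAC1. The protein-coding transcript of HIST4H4 stood at 0.161, 0 and 0.287 TPM and at 6.05, 2.65 and 3.63 TPM. No test was made of these sums or of differences between them.

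**Figure D1:**
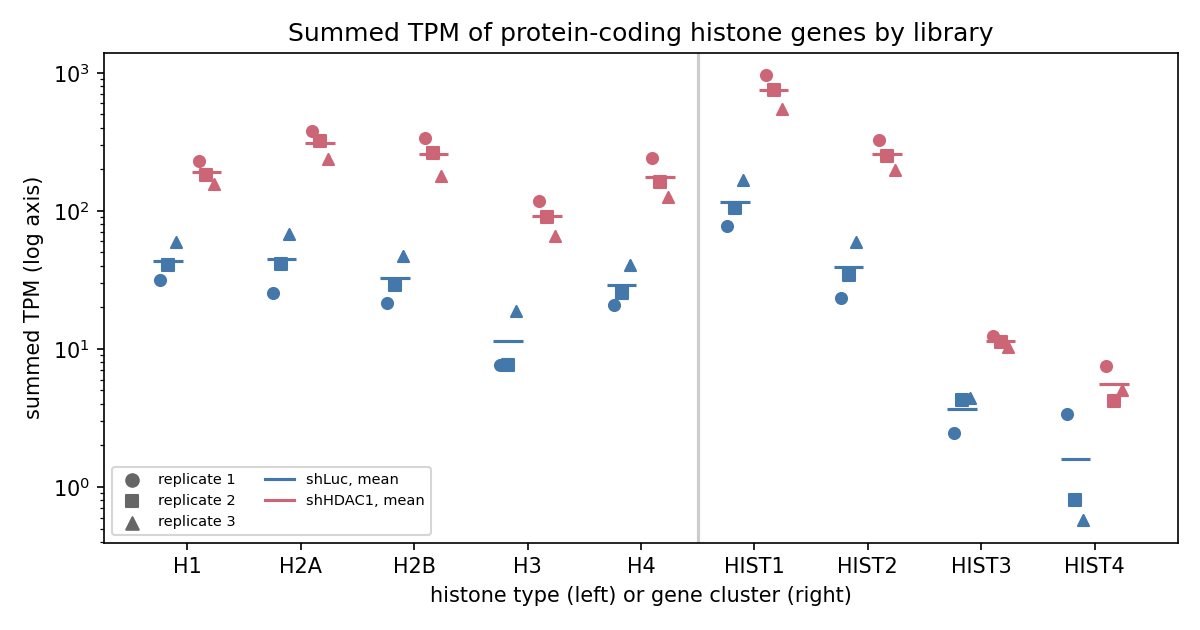
Summed TPM of the protein-coding histone genes in each library (log axis), by type on the left and by cluster on the right, with shLuc in blue, shHDAC1 in red, marker shape for the replicate and a line for the mean of 3. Every red point lies above every blue point of the same type or cluster, and HIST4 has the narrowest gap.

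Libraries of a group differed by up to 2.17 times with shLuc and 1.71 times with shHDAC1 in the sum of all protein-coding members. Over the 47 tested members, shLuc replicate 3 was the highest of its group in 37 and replicate 1 the lowest in 33. With shHDAC1, replicate 1 was the highest in 40 and replicate 3 the lowest in 37. The order of the libraries was thus shared by most members within each group. The share of mitochondrial genes was 1.67%, 1.53% and 1.56% in the shLuc libraries and 2.85%, 1.90% and 2.09% in the shHDAC1 libraries, with the highest value in shHDAC1 replicate 1, and its part in the result was not tested.

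Of the 90 members, 31 were listed at 0 in all 6 libraries (19 protein-coding, 12 pseudogenes) and 59 had a value. In 47 of the 59 the shHDAC1 libraries were all above the shLuc libraries, and in 0 were they all below. Among all 21641 genes with any value, 18.2% stood higher without overlap. The test covered genes that reached 1 TPM in 3 or more libraries, as 47 members did, 45 of them protein-coding. limma on log2(TPM + 1) called 44 of these higher and 0 lower at an adjusted p below 0.05 (46 and 0 at an unadjusted p below 0.05), against 16.9% of all genes tested called higher and 10.3% lower. With no filter, it called 40 of the 59 higher, against 6.27% of all genes called higher and 4.15% lower. Of the 47, 5 passed only through their shHDAC1 libraries (HIST1H2BL, HIST2H2BF, HIST2H2BE, HIST3H2BB and HIST1H3F) and so had to differ. At 1 TPM or more in all 6 libraries were 26 members. Every other tested member had fewer than 3 shLuc libraries at 1 TPM, so it needed shHDAC1 libraries to pass. HIST1H3J, HIST1H4J and HIST2H2BD, which were tested and not called, lay outside the 26.

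By type, the test called higher 3 of 3 tested H1 genes (6 protein-coding genes listed), 13 of 13 H2A (17 listed), 13 of 13 H2B (18 listed), 7 of 8 H3 (15 listed) and 7 of 8 H4 genes (15 listed), against 16.9% of all genes tested. Of the H2B genes, 4 had passed the filter only through shHDAC1, and of the H3 genes 1. By cluster, it called 29 of 31 tested in HIST1 (55 listed), 11 of 11 in HIST2 (12 listed), 2 of 2 in HIST3 (3 listed) and the 1 gene of HIST4. Of these, 2 in HIST1, 2 in HIST2 and 1 in HIST3 had passed the filter only through shHDAC1. The median log2 fold change of the 47 tested members was 2.27 (0.19 to 4.12), and that of all genes tested was 0.07. Type medians lay between 2.12 for H4 and 2.37 for H1. A log2 fold change of 2 or more with a call was seen in 32 of the 47 members (68.1%) and in 36 of 11810 other genes tested (0.305%).

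A group of 3 H1 genes carried almost all H1 RNA. HIST1H1C (chromosome 6, 26055787 to 26056428, GRCh38), a widely expressed linker histone, stood at 25.6, 27.4 and 34.1 TPM with shLuc and at 96.8, 69.9 and 70.6 TPM with shHDAC1. The groups did not overlap, and the log2 fold change was 1.41 ± 0.14 (SE; limma adjusted p = 1.8e-04). It had the highest level of all members with shLuc. HIST1H1E (chromosome 6, 26156354 to 26157107), another major linker histone, whose promoter is printed above, stood at 4.87, 11.3 and 21.5 TPM and at 113, 95.8 and 77.8 TPM, with 3.02 ± 0.39 as the log2 fold change (adjusted p = 6.2e-04). HIST1H1E was thus below HIST1H1C in every shLuc library and above it in every shHDAC1 library. HIST1H1D stood at 1.11, 1.58 and 3.55 TPM and at 20.4, 16.4 and 8.22 TPM (2.37 ± 0.34, adjusted p = 0.0012). HIST1H1A and HIST1H1B were listed at 0 in all libraries, and HIST1H1T, known from testis, reached 0.372 TPM in 1 library.

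The share of HIST1H1C in the summed RNA of the protein-coding members was 18.0% with shLuc and 7.70% with shHDAC1. That of HIST1H1E was 7.79% and 9.30%, and that of HIST1H2BO 1.25% and 4.88%. Without HIST1H1C the ratio of the summed means was 7.19 in place of 6.39.

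H2A and H2B form dimers and enter the nucleosome together. Of the H2A genes, HIST1H2AM (chromosome 6, 27892757 to 27893149) had the highest mean over all libraries, at 1.54, 7.09 and 9.44 TPM with shLuc and 84.2, 69.0 and 51.6 TPM with shHDAC1. Its log2 fold change was 3.50 ± 0.44 (adjusted p = 5.4e-04), but 87.1% of its 31-base words also occur in a transcript of HIST1H3J, so reads could be divided between them. HIST2H2AA3 stood at 5.10, 2.72 and 7.50 TPM and at 68.4, 47.6 and 28.3 TPM, and HIST2H2AA4, which holds all of its words, at 3.74, 8.27 and 14.7 TPM and at 41.1, 41.9 and 45.8 TPM. The order of the libraries was opposite between these copies in the shHDAC1 group, and how their shared reads were divided is uncertain. HIST2H2AC was at 2.09, 4.89 and 3.42 TPM against 24.4, 19.5 and 18.4 TPM (2.32 ± 0.22, adjusted p = 1.1e-04). HIST2H2AB was at 1.03, 0.567 and 1.35 TPM against 8.94, 8.31 and 6.29 TPM (2.17 ± 0.19, adjusted p = 7.2e-05). Neither overlapped between the groups, but only 49.4% of the words of HIST2H2AC occur in no other listed gene. HIST1H2AI, whose promoter is printed above, stood at 0.302, 0.334 and 1.19 TPM and at 17.7, 11.7 and 13.2 TPM (3.26 ± 0.23, adjusted p = 1.9e-05). Of its words, 36.2% occur in no other listed gene and 63.8% occur in HIST1H2AJ.

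HIST1H2BO (chromosome 6, 27893463 to 27893843) had the largest difference of all members. It stood at 1.09, 2.10 and 2.86 TPM with shLuc and at 56.8, 49.4 and 44.4 TPM with shHDAC1, a ratio of means of 24.9 (log2 fold change 4.12 ± 0.21, adjusted p = 1.6e-06). Its shHDAC1 libraries differed from each other by far less than the groups did. HIST1H2BD stood at 5.69, 6.73 and 9.86 TPM and at 59.99, 47.2 and 24.1 TPM (2.35 ± 0.30, adjusted p = 5.9e-04). HIST1H2BN was at 2.56, 2.61 and 3.32 TPM against 23.6, 15.1 and 13.8 TPM (2.24 ± 0.19, adjusted p = 6.1e-05). Both are read from single-exon and from spliced transcripts, described below.

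H3 and H4 pair as a tetramer at the core of the nucleosome. HIST1H3D stood at 2.83, 2.08 and 4.95 TPM with shLuc and at 43.2, 34.0 and 20.5 TPM with shHDAC1 (2.96 ± 0.29, adjusted p = 1.3e-04). HIST1H3B stood at 0.471, 1.30 and 1.86 TPM and at 22.4, 17.0 and 14.1 TPM (3.12 ± 0.25, adjusted p = 3.8e-05). Neither shared more than 10% of its words with other genes, and the groups did not overlap. HIST2H3D was at 0.943, 1.82 and 3.71 TPM against 19.9, 12.2 and 13.8 TPM (2.44 ± 0.30, adjusted p = 4.8e-04). Only 13.6% of its words occur in no other listed gene, so how its shared reads were divided is uncertain. HIST2H3A and HIST2H3C have the same transcript sequence and the same value in each library, 0.386, 0.480 and 1.44 TPM against 8.88, 6.78 and 4.74 TPM (2.15 ± 0.26). They are 1 measurement that enters the counts of members as 2 genes. HIST1H3J was not called (0.91 ± 0.37, adjusted p = 0.10): it stood at 0.943, 0.458 and 3.67 TPM and at 2.93, 4.46 and 3.08 TPM, with shLuc replicate 3 inside the shHDAC1 range. Without that library it was called, at 1.40 (adjusted p = 0.0025).

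Of the H4 genes, HIST2H4A (chromosome 1, 149832659 to 149839767) had the highest level, at 6.55, 9.85 and 17.8 TPM with shLuc and 104, 73.1 and 54.1 TPM with shHDAC1 (2.71 ± 0.32, adjusted p = 3.7e-04). It shares 99.2% of its words with HIST2H4B, which stood at 4.11 ± 1.93 and 19.8 ± 5.13 TPM (SD, n = 3). HIST1H4H (chromosome 6, 26285113 to 26285509), whose sequence is wholly its own, stood at 1.01, 2.23 and 5.29 TPM and at 56.3, 31.4 and 17.1 TPM (3.23 ± 0.46, adjusted p = 0.001). HIST1H4C stood at 6.29, 6.02 and 4.40 TPM and at 27.3, 18.3 and 15.96 TPM (1.69 ± 0.20, adjusted p = 3.7e-04), and HIST1H4I at 0.694, 1.42 and 2.17 TPM and at 11.3, 9.56 and 8.28 TPM (2.18 ± 0.22, adjusted p = 1.8e-04). HIST1H4C and HIST1H4I did not overlap between the groups. HIST1H4J did overlap, at 0.565, 0.936 and 2.22 TPM against 1.55, 0.703 and 2.30 TPM, and was not called (0.19 ± 0.31, adjusted p = 0.70; -0.04 without shLuc replicate 1). HIST1H4K, all of whose words occur in HIST1H4J, was listed at 0.

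The smallest called difference was that of HIST1H2AC, which stood at 2.38, 2.51 and 2.17 TPM with shLuc and at 5.66, 5.50 and 4.68 TPM with shHDAC1 (0.90 ± 0.14, adjusted p = 0.0013). HIST3H2A was at 2.03, 3.73 and 4.02 TPM against 8.72, 8.51 and 8.29 TPM (1.19 ± 0.19). HIST4H4 was called at 1.47 ± 0.36 (adjusted p = 0.015), but not without shLuc replicate 2 (adjusted p = 0.062), without shHDAC1 replicate 1 (adjusted p = 0.055) or with no filter (adjusted p = 0.098). HIST1H2AH, HIST1H2BL and HIST1H4E lost their calls with no filter, at adjusted p of 0.057, 0.079 and 0.067.

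Of the 19 pseudogenes, 2 passed the filter. HIST2H2BB stood at 5.69, 2.82 and 7.20 TPM and at 92.6, 74.1 and 42.9 TPM (3.51 ± 0.32, adjusted p = 8.0e-05), and 68.7% of its words occur in the protein-coding HIST2H2BF. Which of them the reads came from is uncertain. HIST2H2BD was at 2.23, 0 and 2.04 TPM against 2.87, 4.73 and 3.76 TPM and was not called (1.14 ± 0.40, adjusted p = 0.063). It was called higher in 3 of the alternative settings described below. The protein-coding sums do not include the pseudogenes.

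Many of these genes are near-identical copies, so each gene was given the share of its 31-base words found in no other listed gene. At 90% unique or more stood 44 members, of which 18 were tested and 18 called higher, with a median log2 fold change of 2.26. Below 90% stood 46 members, of which 29 were tested and 26 called higher, with a median of 2.27. Of the 18, 1 had passed the filter only through shHDAC1 and so had to differ, as had 4 of the 29. At 1 TPM or more in all 6 libraries were 12 of the 18 and 14 of the 29. These counts stand beside the 16.9% of all genes called higher. HIST1H2BK was listed at 0, and 74.4% of its words occur in H2BFS, an H2B gene annotated on chromosome 21. H2BFS stood at 28.9, 30.5 and 37.5 TPM with shLuc and at 145, 111 and 84.1 TPM with shHDAC1 (1.75 ± 0.18, adjusted p = 1.6e-04). H2BFS has more than 1 entry among the listed genes, each with 74.4% of the words of HIST1H2BK, and HIST1H2BE holds 29.1% of them. The files do not tell which of these entries gave the reads. H2BFS is not a member, so the H2B sum and its ratio leave these values out.

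H2A and H2B genes often stand back to back and share the stretch between their starts. Pairs were sought with starts up to 1000 bases apart, taking the outermost annotated start of each gene. Among the protein-coding members, 12 pairs had starts 219 to 357 bases apart on opposite strands, and 11 of them joined an H2A and an H2B gene. The remaining pair, HIST1H3J with HIST1H2BO, takes its HIST1H3J start from a spliced transcript without coding sequence. That start lies inside HIST1H2AM, which also pairs with HIST1H2BO. Both genes were called higher in 8 pairs and 1 gene in 3 pairs, against 16.9% of all genes tested called higher. In 1 pair, HIST1H2AA with HIST1H2BA, known from testis, both were listed at 0. HIST2H2BE, HIST3H2BB and HIST1H2BL, each in a pair with both called, had passed the filter only through shHDAC1. HIST1H2BK and HIST1H2BM, each in a pair with 1 called, were not tested. HIST1H2AM and HIST1H2BO stood 314 bases apart at 3.50 and 4.12 on the log2 scale, and the HIST1H2BO promoter printed above lies between them. HIST1H2AD and HIST1H2BF differed by 2.64 and 2.90, and HIST1H2AE and HIST1H2BG by 2.56 and 2.34. Other pairs were less alike, such as HIST1H2AI at 3.26 and HIST1H2BL at 1.61. Pairs were not tested against each other, and for genes annotated from their coding sequence alone the start is that of translation. HIST1H2AK and HIST1H2BN, whose RefSeq promoters overlap on opposite strands, were not counted, because the outermost HIST1H2BN start lies elsewhere.

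Other genes between the first and the last HIST1 member (chromosome 6, 25726132 to 27893843) were read as neighbours. Of 14 tested, 3 (21.4%) were called higher and 2 lower, against the 16.9% and 10.3% of all genes tested. The median log2 fold change was 0.03, and the highest value was 0.49, for ZNF391. The 2 lower genes were BTN3A1 and BTN3A2, at -0.45 ± 0.08 and -0.56 ± 0.08.

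The 116 listed histone transcripts were divided by how their annotated models end. Where a gene has a single model, its reads can only go to that model, so these classes do not tell how the messages ended. As the coding sequence alone stood 35, 12 ended within 60 bases of the hairpin, 31 ran on past it, and 38 held no hairpin. Their summed means were 6.61, 7.15, 6.21 and 6.15 times higher with shHDAC1, in that order, and no class had overlapping groups. Transcripts of a single exon summed to 101, 135 and 231 TPM with shLuc and to 1362, 1064 and 785 TPM with shHDAC1 (ratio 6.88). Spliced transcripts summed to 14.7, 12.8 and 13.4 TPM and to 40.2, 33.7 and 26 TPM (ratio 2.44). Single transcripts could be called less firmly than genes: limma called 36 of 53 tested histone transcripts higher and 0 lower (48 and 0 at an unadjusted p below 0.05), against 1.99% of all transcripts higher and 1.59% lower, but only 3 to 20 higher when any 1 library was left out (3 without shHDAC1 replicate 2, 20 without shLuc replicate 3). Some of the 53 were below 1 TPM in every shLuc library, passed only through shHDAC1 and so had to differ. They were transcripts of HIST1H2BJ, HIST1H2BL, HIST1H3F, HIST2H2BE, HIST2H2BF, HIST3H2BB and HIST4H4, all called except those of HIST1H2BL and HIST1H3F.

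In 8 genes single-exon and spliced transcripts could be set side by side. For HIST2H4A the single-exon sum stood at 5.40, 8.17 and 16.4 TPM with shLuc and at 99.6, 70.2 and 51.7 TPM with shHDAC1, and the spliced sum at 1.15, 1.67 and 1.37 TPM and at 4.04, 2.86 and 2.43 TPM. HIST2H4A shares 99.2% of its words with HIST2H4B, so how reads were divided between the 2 genes is uncertain. For HIST1H2BC the single-exon transcript stood at 1.36, 1.75 and 3.93 TPM and at 20.1, 14.8 and 9.76 TPM, and the spliced one at 2.59, 0.976 and 0.560 TPM and at 1.62, 2.54 and 1.43 TPM, where the groups overlapped. The difference between the changes in log2(TPM + 1) was 1.74 to 2.08 in HIST1H2BC, HIST1H2BD, HIST1H2BJ, HIST2H4A and HIST4H4, and 0.12 to 0.92 in HIST1H2BN, HIST1H3J and HIST2H2BF. Where sums lay below 1 TPM, this scale understates the changes. For HIST2H2BF the means with shLuc and shHDAC1 were 0.223 and 3.92 TPM single-exon and 0.389 and 4.03 TPM spliced. By a two-sided exact permutation test p was 0.10 in the first 5 (0.16 adjusted over the 8) and 0.20 to 0.60 in the others (0.27 to 0.60 adjusted). With 3 libraries against 3, p cannot go below 0.10, so none of these differences could pass.

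**Figure D2:**
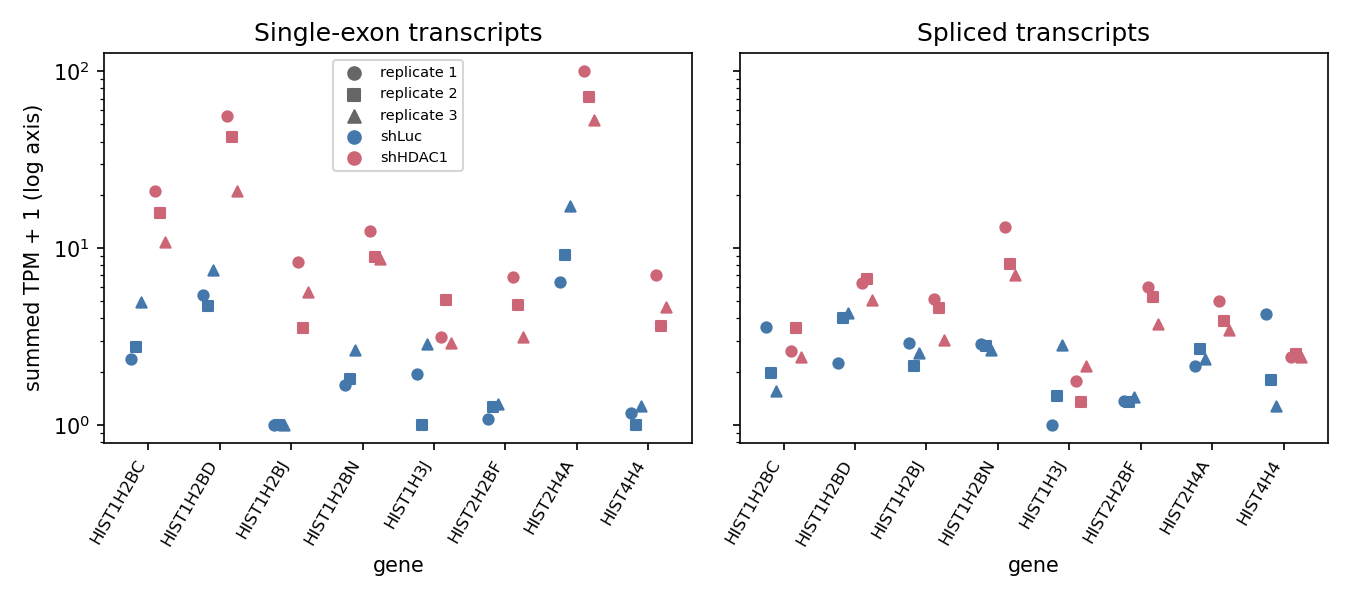
Summed TPM + 1 (log axis) of the single-exon transcripts (left) and the spliced transcripts (right) of 8 histone genes in each library, shLuc in blue and shHDAC1 in red, marker shape for the replicate. For HIST2H4A the red points stand far above the blue points on the left, at 51.7 to 99.6 against 5.40 to 16.4 TPM, and nearer to them on the right, at 2.43 to 4.04 against 1.15 to 1.67 TPM. This gene shares 99.2% of its words with HIST2H4B.

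Other histone genes, most of which are made outside S phase as polyadenylated messages, were listed as a comparison. Of 13 genes, 10 were tested, 3 were called higher and 1 lower, against 16.9% and 10.3% of all genes tested, and the median log2 fold change was 0.02. Their summed level was 3540 to 3632 TPM with shLuc and 3590 to 3689 TPM with shHDAC1. The higher genes were H2BFS, H2AFX, the variant phosphorylated at DNA breaks (0.66 ± 0.10, adjusted p = 0.0011), and H3F3B, which encodes H3.3 (0.39 ± 0.05, adjusted p = 4.1e-04). H3F3A, the other H3.3 gene, was lower (-0.30 ± 0.05, adjusted p = 0.002). H2AFZ, which encodes H2A.Z, stood at 828 ± 29.2 and 744 ± 48.2 TPM (SD, n = 3; -0.16 ± 0.06, adjusted p = 0.087), and the linker variant H1F0 at 10.3 ± 0.467 and 10.6 ± 0.356 TPM.

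Of 34 tested genes that make and process histone messages, 3 were called higher and 2 lower, against 16.9% and 10.3% of all genes tested, with a median of 0.06. SLBP stood at 150.8, 150.7 and 150.9 TPM with shLuc and at 142, 148 and 143 TPM with shHDAC1 (-0.06 ± 0.06, adjusted p = 0.45). LSM11, a protein of the U7 particle, stood at 2.89, 3.81 and 3.43 TPM and at 6.06, 5.21 and 6.01 TPM (0.63 ± 0.14, adjusted p = 0.0095). The cleavage factor genes CSTF2T (0.57 ± 0.12) and CPSF4 (0.23 ± 0.08) were the other genes called higher. CCNE2, a cyclin E that activates CDK2 at the entry to S phase, was lower, at 16.4, 19.1 and 17.7 TPM against 10.6, 8.75 and 6.65 TPM (-0.97 ± 0.15, adjusted p = 0.0018), as was SNRPG, of the Sm ring (-0.34 ± 0.10). CPSF4 lost its call whichever library was left out (limma adjusted p 0.052 to 0.13), and SNRPG lost its call without shLuc replicate 1 or 2 or shHDAC1 replicate 1 or 3 (0.10 to 0.12). The coactivators NPAT and CASP8AP2 and the U7-associated ZNF473 were not called, at -0.17 ± 0.16, 0.09 ± 0.16 and 0.20 ± 0.13, and the signs of NPAT and CASP8AP2 turned in other settings.

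Of 12 tested genes for the decay of histone messages, 0 were called higher (0 also at an unadjusted p below 0.05) and 1, PNRC2, lower (-0.19 ± 0.06, adjusted p = 0.041). ERI1, the exonuclease that trims the hairpin, stood at 13.4 ± 1.71 and 10.3 ± 0.853 TPM (SD, n = 3; adjusted p = 0.063). Of 21 histone chaperone genes, 5 were called higher, among them SSRP1 of the FACT complex (0.35 ± 0.06), ASF1B (0.29 ± 0.07) and the importin gene IPO4 (0.29 ± 0.09), and 2 lower, RBBP4 (-0.27 ± 0.05) and SET (-0.25 ± 0.06). Of all genes tested, 16.9% were called higher and 10.3% lower. PNRC2 lost its call whichever library was left out (adjusted p 0.071 to 0.12), IPO4 lost its call without shLuc replicate 1, 2 or 3 or shHDAC1 replicate 1 or 3 (0.071 to 0.13), and ASF1B without shLuc replicate 1 (0.051) or shHDAC1 replicate 3 (0.052).

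Genes of S phase and DNA replication are set beside the histone genes because both are used in the same phase. Of 48 tested, 6 were called higher and 11 lower, against 16.9% and 10.3% of all genes tested, and the median log2 fold change was -0.04. Their summed level was 5052, 5195 and 5210 TPM with shLuc and 5081, 4861 and 4793 TPM with shHDAC1, so the groups overlapped. Called higher were TIPIN, POLA2 and RPA2 (0.52 ± 0.07, 0.53 ± 0.09 and 0.32 ± 0.06) and, called lower, UHRF1, CDC6 and GINS2 (-0.87 ± 0.08, -0.60 ± 0.08 and -0.51 ± 0.07). PCNA, the sliding clamp, stood at 459, 511 and 448 TPM and at 384, 433 and 376 TPM (-0.25 ± 0.07, adjusted p = 0.035), a call lost without shLuc replicate 1 or 2 or shHDAC1 replicate 1 or 3 (adjusted p 0.072 to 0.11).

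**Figure D3:**
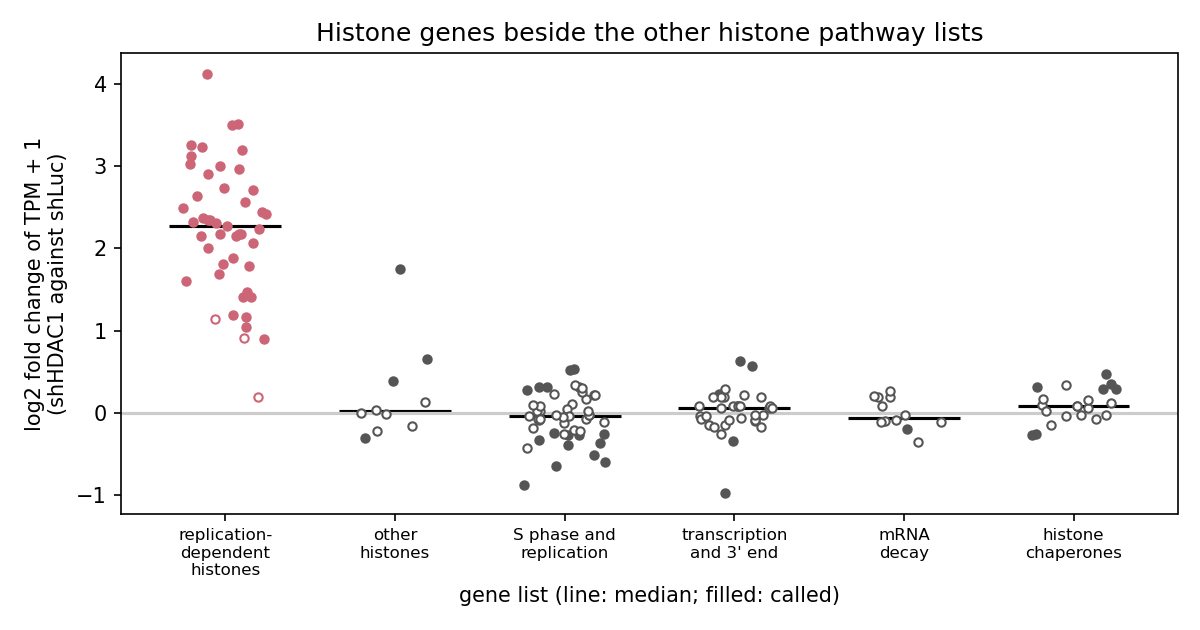
Log2 fold change of TPM + 1 for the 47 tested replication-dependent histone genes (red) and for the other listed genes (grey), with a line at each median (filled, called; open, not called). The red points have a median of 2.27, and the 5 other medians lie between -0.05 and 0.09, with H2BFS, at 1.75, the highest of the grey points.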

How the data were processed

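The authors deposited, for each of 6 libraries, the TPM of 173259 Ensembl transcripts, per the file headers. RNA was column-purified total RNA treated with DNase and made into libraries with a NEBNext Ultra kit, per the labels' protocols. STAR, DESeq and hg19 are named, without version or role, per the submitters' processing notes, and the tool and annotation behind the TPM were not given in the sources used here. A TPM is a share, so it moves with all other transcripts, and without read numbers the precision of low values is unknown.

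Identifiers without versions were matched to GENCODE 29 (159239 transcripts, 91.9%), and values were summed per gene. Positions are those of GRCh38, and none was converted between builds. Groups followed the titles. limma 3.58.1 in R 4.3.3, with a variance trend, was run on log2(TPM + 1) of genes (and, apart, of transcripts) that reached 1 TPM in 3 or more libraries. P-values were adjusted by Benjamini-Hochberg over all of them, with calls at an adjusted p below 0.05. This scale understates differences of low genes. The script was tested on simulated data. Type and cluster sums have no test. Sequences came from GENCODE 29 transcripts and RefSeq promoters. Python 3.11.15 with pandas 2.3.3 did the rest.

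The members and the lists (transcription and processing, decay, chaperones, replication-independent histones, S phase, cell markers) were chosen with earlier results of these data known. A list of 21 RNAs without poly(A) tails matched 0 genes and was not used. Full values are given for the 3 tested members of each type with the highest mean and the 3 with the smallest p, and up to 3 called genes per direction of each list, with SLBP, NPAT, CASP8AP2, ZNF473, LSM11, H1F0, H2AFZ, H2AFX, H3F3B, PCNA and CCNE2. HIST1H2AC, HIST3H2A, HIST1H4J, HIST1H3J, HIST4H4, ERI1 and the genes between HIST1 members were named after their values were seen, as were the back-to-back pairs. Scaling was varied by median centring, by quantile normalization and by rescaling that left out histone, immunoglobulin and mitochondrial genes. The filter was dropped or set to a mean of 5 TPM, and the pseudocount was set to 0.1 or 5. Sums were also taken over protein-coding transcripts only, the replicate number was added as a block, and each library was left out in turn.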

Additional observations from a re-analysis of the deposited data

How the results depend on the processing

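Of the 44 histone genes called higher, 40 kept their call in every setting in which they were tested, and 0 members were called lower in any. Counts of members called higher fell to 29, of 29 tested, with a mean of at least 5 TPM, since fewer were tested. All type and cluster sums kept their direction, although HIST4 gave no value over protein-coding transcripts only, because 1 shLuc library was then at 0. For the counts below, the cause of the movement was not tested. With median centring, the calls were 1336 genes higher, 1 chaperone and 3 S phase genes higher, and 4 processing, 2 decay and 3 replication-independent histone genes lower. Quantile normalization gave 2 chaperones higher, and 2 decay genes, 1 chaperone and 2 replication-independent histone genes lower. No filter gave 2 chaperones and 3 S phase genes higher and 1 processing gene lower, a mean of at least 5 TPM 1 processing gene higher, protein-coding transcripts only 3 decay genes lower, and rescaling without histone, immunoglobulin and mitochondrial genes 0 decay genes lower. Signs turned for CASP8AP2 (-0.01 with median centring, -0.04 with quantile normalization, -0.01 to 0.23 with 1 library left out), H1F0 (-0.06 and -0.10 with those scalings), NPAT (0.03 over protein-coding transcripts only) and HIST1H4J (-0.04 to 0.44 with 1 library left out).

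Leaving out 1 library at a time gave 1295 to 1981 genes called higher, with 1295 without shHDAC1 replicate 1 and 1303 without shLuc replicate 1. The same gave 141 to 308 transcripts higher and 64 to 187 lower, 3 to 20 histone transcripts higher, 3 to 6 S phase genes higher and 7 to 10 lower, 1 to 7 chaperones higher, 0 to 1 decay genes higher and 0 to 1 lower, 1 to 2 processing genes lower and 1 to 2 replication-independent histone genes lower. As a replicate block, the number gave 129 transcripts higher and 79 lower, 1 histone transcript higher, 3 replication-independent histone genes lower, 1979 genes higher and 1264 lower, and again 44 members higher. Deviations of same-numbered libraries correlated at -0.103, 0.182 and 0.034, so the numbers were not taken to pair the libraries.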

Other observations

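A set of other single-exon genes was chosen after the values of the members were seen. Of 130 tested protein-coding genes outside the members whose listed transcripts all had a single exon, 54 (41.5%) were called higher and 7 lower with shHDAC1, against 16.9% and 10.3% of all genes tested, and their median log2 fold change was 0.29. Their highest value was 1.97, below the median of 2.27 of the histone genes. When single-exon genes of every kind were taken, 69 of 446 (15.5%) were called higher, with a median of 0.08. Of 330 other genes with a mean transcript length of up to 600 bases, 23 (6.97%) were called higher and the median was 0.03.

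Among the listed markers of other cells, the myeloid gene CD68, which encodes a lysosomal membrane protein, was called higher with shHDAC1 (8.49 ± 1.53 and 18.1 ± 1.98 TPM, SD, n = 3). The other 4 myeloid markers stayed below 0.6 TPM in every library.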
